A study of Homo sapiens with 20 samples.

Results

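The interferon-stimulated genes described here are 43 genes, chosen by name from the gene column of a table that lists 18305 genes in 20 RNA-seq libraries, and all 43 were found there. The libraries come from AMO1, L363 and RPMI (RPMI-8226), which are multiple myeloma lines, and from ARH77, which the labels give as a B-lymphoblastoid line. Each line was sequenced as wild-type (WT) parental cells and as cells resistant to bortezomib (BtzR). AMO1 and L363 were also sequenced as cells resistant to carfilzomib (CfzR). Both drugs inhibit the proteasome, and the resistant cells were kept in 90 nM of their drug, while the labels name no drug for the WT cells. The 10 groups therefore are AMO1 WT, AMO1 BtzR, AMO1 CfzR, L363 WT, L363 BtzR, L363 CfzR, RPMI WT, RPMI BtzR, ARH77 WT and ARH77 BtzR, with 2 libraries each, which the study's methods call biological replicates. The resistant cells of a group are 1 derivative of 1 line, so a difference from WT holds for that derivative, and exposure to the drug and the resistant state cannot be told apart.

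Type I interferons bind a receptor made of IFNAR1 and IFNAR2, and its kinases JAK1 and TYK2 phosphorylate STAT proteins such as STAT2. With IRF9 these form a complex, ISGF3, which binds the interferon-stimulated response element in the promoters of the genes described here. Their products sense foreign RNA, block viral replication and entry, attach the ubiquitin-like protein ISG15 to other proteins, and feed back on the pathway. Many are also transcribed at a basal level without added interferon, and the labels name no interferon treatment in any of these groups.

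Levels are given as FPKM, fragments scaled by transcript length and by the mapped total of the library, and fold changes as differences of log2(FPKM + 1), which understate the change of genes under a few FPKM. A gene was called where the limma test gave an adjusted p under 0.05 and the log2 difference was at least 1. Only genes whose 2 libraries averaged 1 FPKM or more in some group were tested, which kept all 43 and 13089 genes in all. The sum of FPKM per library was 457317 to 494850, and libraries of a group correlated with r of 0.986 to 0.998 over all genes. Read counts were not used here, so the depth behind a low FPKM is unknown.

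The libraries labelled AMO1 CfzR went against their label. Over all genes they correlated with L363 WT at r of 0.986 to 0.987 and with AMO1 WT at 0.878 to 0.883. Over the interferon-stimulated genes the values were 0.975 to 0.978 for L363 WT and 0.762 to 0.806 for AMO1 WT. The correlation with L363 CfzR was higher still, at 0.99 to 0.992 over all genes and 0.983 to 0.988 over the interferon-stimulated genes. The median absolute log2 difference over the interferon-stimulated genes was 0.18 from L363 WT and 0.27 from L363 CfzR. In the libraries labelled AMO1 CfzR, 37 of the 43 genes were nearer to L363 WT than to AMO1 WT, and in AMO1 BtzR 14 of 43 were. The comparison of AMO1 CfzR with AMO1 WT is therefore given apart from the others, and carries whatever difference exists between AMO1 and L363. The plasma cell markers, which include the defining genes SDC1, TNFRSF17 and PRDM1, reached 1 FPKM in both libraries for 8 of 8 genes in every AMO1 and L363 group and for 7 of 8 in the RPMI and ARH77 groups. The gene that fell short was SLAMF7 in RPMI, at 0.74 to 0.82 FPKM in WT and 0.27 to 0.41 in BtzR. In ARH77 it was the defining gene PRDM1, at 0.83 to 1.67 FPKM in WT and 0.41 to 0.66 in BtzR. ARH77 stood apart, with 7 of 7 B cell markers at 1 FPKM or more, against 1 or 2 of 7 in every other group.

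Promoter sequence was available for 34 of the 43 genes, from RefSeq (GRCh38.p14), as the 250 bases before the transcription start. The core of the interferon-stimulated response element was searched as GAAANNGAAA on either strand, the other strand reading TTTCNNTTTC. It was found upstream of 22 of the 34 genes, or 64.7%, against 3.71% of the 27305 genes in the promoter table. The stretches below come from 6 genes with a core, ranked by their largest called change, AMO1 CfzR against AMO1 WT included. MX1 (5.21) and IFI6 (2.86) took their places through that comparison, which carries the difference between lines. In the other comparisons of resistant with WT cells IFI6 reached -1.69, in RPMI BtzR. ISG15, which has a core but is not shown, reached -2.004, in L363 BtzR. The core is in capitals and the sequence is read 5′ to 3′ on the gene's strand. A match is a description of the letters and does not show that a factor binds there.
MX1, chr21:41431824-41431893, plus strand: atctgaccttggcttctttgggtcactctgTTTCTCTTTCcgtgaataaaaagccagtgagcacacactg
IFITM1, chr11:313970-314039, plus strand: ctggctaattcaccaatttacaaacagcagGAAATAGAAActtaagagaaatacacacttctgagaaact
LGALS3BP, chr17:78979942-78980011, minus strand: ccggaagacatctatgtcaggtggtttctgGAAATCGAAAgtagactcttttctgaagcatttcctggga
IFI6, chr1:27672246-27672378, minus strand: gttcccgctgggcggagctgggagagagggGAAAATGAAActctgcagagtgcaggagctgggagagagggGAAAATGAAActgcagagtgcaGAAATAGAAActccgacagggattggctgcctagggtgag
ISG20, chr15:88638917-88638986, plus strand: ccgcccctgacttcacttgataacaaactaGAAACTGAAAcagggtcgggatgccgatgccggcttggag
SAMD9, chr7:93118076-93118145, minus strand: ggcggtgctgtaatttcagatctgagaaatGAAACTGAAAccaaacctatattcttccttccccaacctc
IFI6 carried 3 cores within 133 bases, and the other 5 carried 1 core each, which MX1 holds on the opposite strand. The core of IFITM1 began 40 bases before the start and that of MX1 196 bases before it. MX1 had 3 promoter sequences, of which 1 held a core, and its stretch and distance belong to that one. RefSeq promoters of IFIT2, USP18, OAS2, TRIM22, IRF7, IFITM2, MX2, DHX58 and OASL were not used here.

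**Figure D1:**
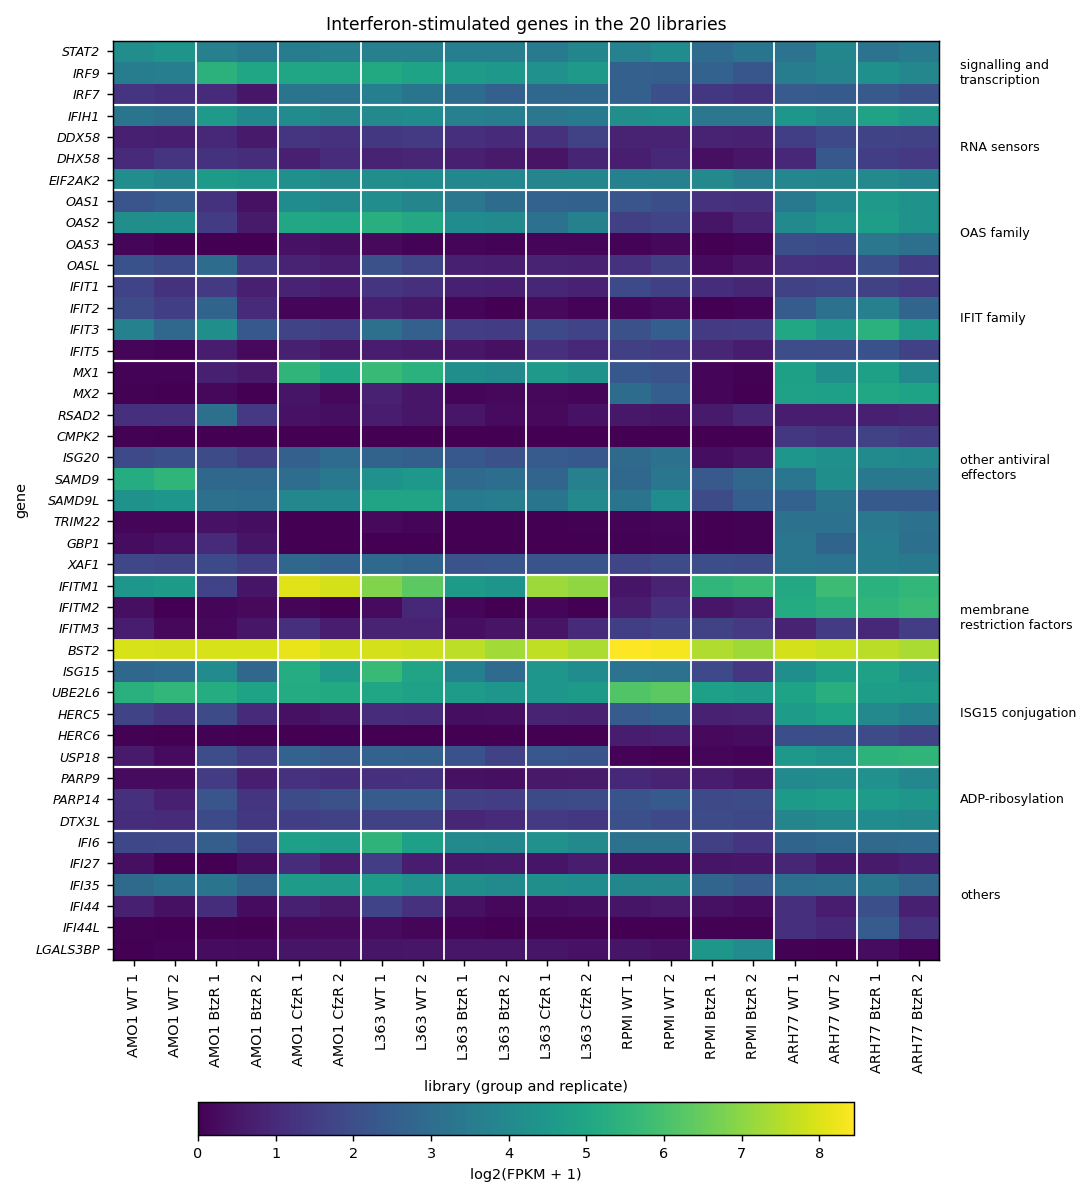
Levels of the 43 interferon-stimulated genes (rows, by role) in the 20 libraries (columns, by group and replicate), coloured by log2(FPKM + 1). BST2 is bright in every library, IFITM1 runs from dark to bright between groups, and CMPK2, GBP1, HERC6, IFI44L, OAS3 and TRIM22 are dark outside the 4 ARH77 libraries.

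The first question was how much of this set the parental lines express. In WT cells the set was broadest in ARH77, where 36 of 43 genes reached 1 FPKM in both libraries, against 28 in L363, 26 in RPMI and 25 in AMO1. ARH77 had the highest mean of the 4 lines for 21 genes, L363 for 14, and AMO1 and RPMI for 4 each. The 4 lines differed in 32 of the 43 genes, 74.4%, where 52.2% of all tested genes differed (limma F test, adjusted p under 0.05 and a range of group means of at least 1). Of these 32, 7 averaged 1 FPKM or more in ARH77 groups alone, so they entered the test through the line where they were high, and 25 of the other 36 genes differed. Across all 20 libraries, 13 genes stayed at 1 FPKM or more, among them STAT2, IRF9, IFIH1, EIF2AK2 and BST2. Another 6, CMPK2, GBP1, HERC6, IFI44L, OAS3 and TRIM22, stayed under 1 FPKM in all 16 AMO1, L363 and RPMI libraries.

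Against the mean of the 3 myeloma lines, ARH77 WT was called higher for 19 of 43 genes and lower for 1, where 11.9% and 10.3% of tested genes were called. The test sets the difference against the spread between libraries, not between lines, so its p-values hold for these lines alone. Of the 19, 6 were tested through the ARH77 groups alone (OAS3, CMPK2, TRIM22, GBP1, IFITM2 and HERC6) and had to differ, and the other 13 were not. These 13 hold all 3 ADP-ribosylation genes, IFIT2, IFIT3 and IFIT5, the ISG15 conjugation genes HERC5 and USP18, and MX1, MX2, ISG20 and XAF1. None of the 3 signalling genes was called, and SAMD9L was the 1 gene called lower. MX1 and IFITM1 were called higher than the mean of the 3 lines while lying below L363 WT. PARP9, a mono-ADP-ribosyltransferase that works in a complex with DTX3L, was at 15.23 and 15.84 FPKM in ARH77 WT, and the 6 myeloma WT libraries lay between 0.18 and 1.35. The log2 difference was 3.28 ± 0.15 (SE; adjusted p = 4.28e-11). PARP14, another ADP-ribosyltransferase, differed by 2.77 ± 0.17 (adjusted p = 1.96e-09), and DTX3L, the ubiquitin ligase of that complex, by 2.38 ± 0.11 (adjusted p = 7.90e-11).

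IFITM2, which restricts virus entry from endosomes, was at 35.72 and 42.18 FPKM in ARH77 WT and at no more than 1.24 FPKM in the other WT libraries. It passed the filter on low values through the ARH77 groups alone, so these levels are given without a test. MX2, a dynamin-like GTPase that acts on retroviruses, was at 27.55 and 26.31 FPKM in ARH77 WT. RPMI WT came next, at 6.84 and 4.75 FPKM, while L363 WT was at 0.71 and 0.42 and AMO1 WT at 0.04 and 0.02. These 4 lines did not overlap for MX2. USP18, the protease that removes ISG15 and damps receptor signalling, was at 21.91 and 19.45 FPKM in ARH77 WT, 5.33 and 4.99 in L363 WT, 0.51 and 0.19 in AMO1 WT, and 0.05 and 0 in RPMI WT. HERC5, the ligase that attaches ISG15, was at 23.75 and 28.81 FPKM in ARH77 WT and at no more than 5.14 FPKM in the other lines. The IFITM, OAS and IFIT families hold close paralogs, and RSEM, which the submitters name, divides reads shared between similar transcripts by estimation, so the split within a family is less certain than its presence.

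L363 led for another part of the set. MX1, a GTPase that blocks influenza and related viruses, was at 50.59 and 41.28 FPKM in L363 WT, 26.92 and 17.28 in ARH77 WT, 4.02 and 3.49 in RPMI WT, and 0.06 and 0.07 in AMO1 WT, an order in which no neighbours overlapped. IFITM1, which restricts entry at the plasma membrane, was at 115 and 78.43 FPKM in L363 WT, 33.07 and 54.07 in ARH77 WT, 20.94 and 23.43 in AMO1 WT, and 0.4 and 0.79 in RPMI WT. It had the widest range among the 43 genes, 5.92 between group means on the log2 scale, with 5.45 for MX1. ISG15 was at 50.39 and 29.6 FPKM in L363 WT, 17.65 and 24.39 in ARH77 WT, 8.27 and 7.87 in RPMI WT, and 6.25 and 6.78 in AMO1 WT. The order of these lines was thus not 1 order for the whole set: USP18 was near 0 in RPMI WT, where MX2 was well above its level in L363 WT.

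Some members had narrow ranges between the parental lines. EIF2AK2, the RNA-activated kinase PKR, lay between 11.91 and 16.89 FPKM in the 8 WT libraries, with a range of 0.44 between group means on the log2 scale (adjusted p over the 4 lines = 0.0151). BST2 (tetherin), which holds budding virions at the membrane, was the most abundant member in all 20 libraries, between 212.85 and 348.62 FPKM in WT cells, with RPMI WT the highest and a range of 0.57 (adjusted p = 0.00144). IFIT1, which binds viral RNA lacking cap methylation, lay between 1.24 and 2.63 FPKM in the WT libraries, and its adjusted p over the 4 lines was 0.0702.

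**Figure D2:**
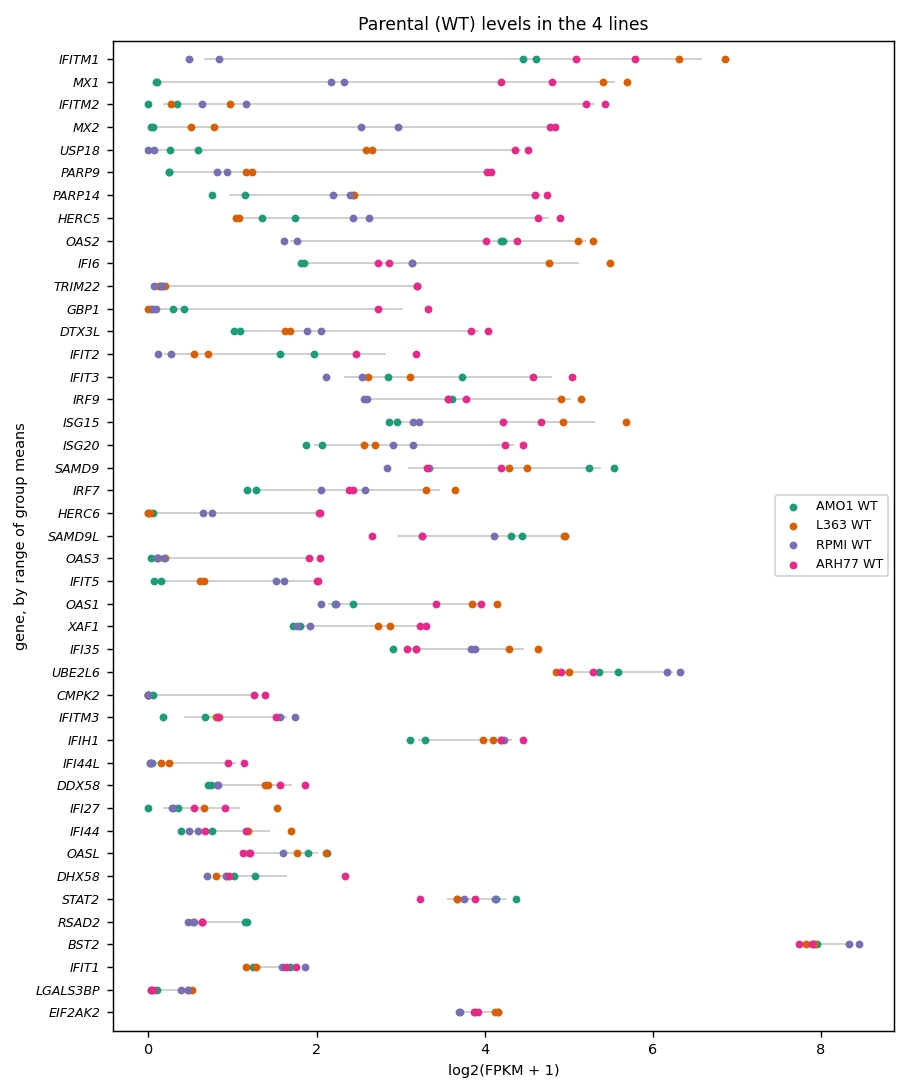
WT levels of the 43 genes in log2(FPKM + 1), with 2 points per line (1 per library) and a grey bar over the range of the 4 group means, ordered by that range. IFITM1 and MX1 have the widest ranges, 5.92 and 5.45, and ARH77 lies apart from the other lines for IFITM2, PARP9, PARP14, TRIM22 and GBP1.

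The main question of the design is what differs between resistant cells and the WT cells of their line. The answer differed by line. In both L363 derivatives and in RPMI BtzR the set leaned lower, with a median log2 difference of -0.49 in L363 BtzR, -0.37 in L363 CfzR and -0.40 in RPMI BtzR, where the medians over all tested genes lay between -0.004 and 0.052. The median of the set was 0.01 in AMO1 BtzR and 0.07 in ARH77 BtzR. Over these 5 comparisons 23 of 43 members were called at least once, where 23.0% of all tested genes were. OAS2 and SAMD9L were called lower in 4 of the 5, all but ARH77, where 0.0688% of tested genes were called lower in 4 or more. With MX1 and SAMD9, which were called lower in 3, they make 4 of 43 members, where 0.344% of tested genes were called lower in 3 or more. L363 BtzR and L363 CfzR share their WT libraries, so their calls are not separate evidence. Each of the other 20 members was called in none of the 5, among them the whole IFIT family, STAT2, EIF2AK2, PARP9, PARP14 and DTX3L.

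**Figure D3:**
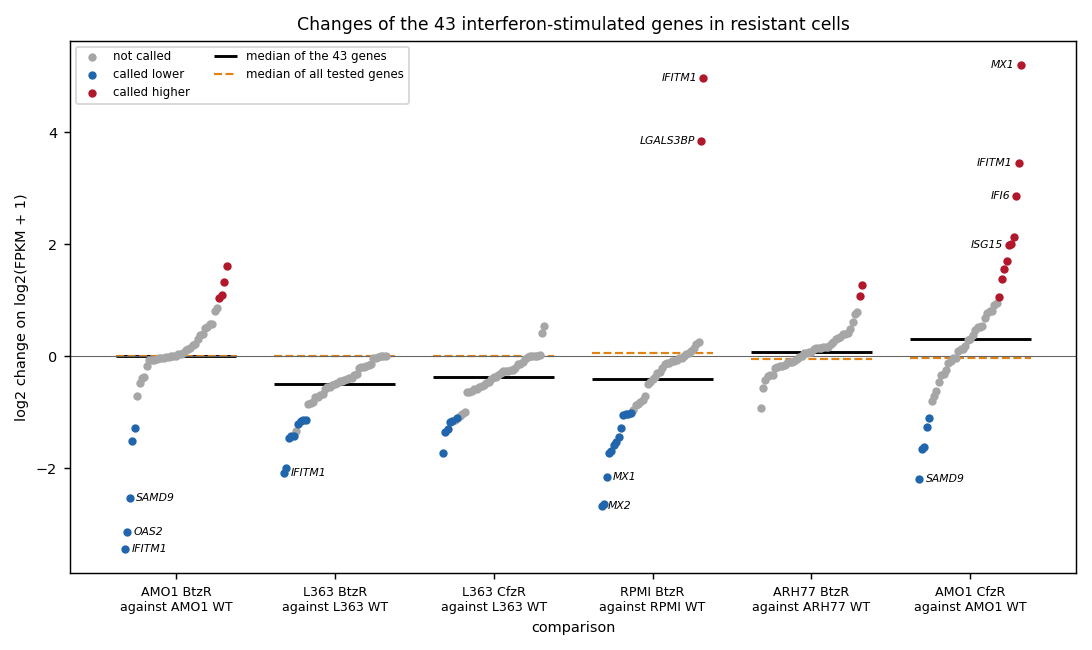
Log2 change of each of the 43 genes (points, sorted within a comparison) in 6 comparisons, coloured by call, with the median of the set (black) and of all tested genes (dashed). The black bar lies below the dashed bar in L363 BtzR, L363 CfzR and RPMI BtzR, and IFITM1 and LGALS3BP stand far above the rest in RPMI BtzR.

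In L363 BtzR, 9 of 43 genes were called lower and 0 higher, where 1.05% and 1.02% of tested genes were called. At any fold, 19 of 43 passed an adjusted p of 0.05 as lower and 0 as higher, where 5.52% and 5.66% of tested genes passed. For 38 of 43 genes both BtzR libraries were below both WT libraries, and for 0 both were above, against 30.6% and 31.0% of tested genes. The other 5, OAS3, CMPK2, GBP1, HERC6 and LGALS3BP, overlapped at under 1 FPKM in all 4 libraries. Among the 38 is IFI27, which averaged 1 FPKM or more in L363 WT alone and so entered the test through the group where it was high.

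Among signalling genes in L363 BtzR, IRF9 was at 24.34 and 21.54 FPKM against 34.45 and 28.96 in WT, a log2 difference of -0.45 that was not called. STAT2 was at 11.46 and 11.23 FPKM against 11.69 and 11.68. Of the OAS family, enzymes that make the 2-5A activator of RNase L, OAS2 fell from 38.1 and 33.46 FPKM to 16.18 and 15.26, a log2 difference of -1.14 ± 0.24 (SE, adjusted p = 0.00609). OAS1 went from 16.73 and 13.44 to 9.17 and 7 FPKM, -0.83 ± 0.23 (adjusted p = 0.0317), under the fold needed for a call. OASL, a family member without that enzyme activity, fell from 3.31 and 2.39 to 0.67 and 0.65 FPKM.

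MX1 fell in L363 BtzR from 50.59 and 41.28 to 17.63 and 15.02 FPKM, a log2 difference of -1.43 ± 0.24 (adjusted p = 0.000893). SAMD9 and SAMD9L, neighbouring genes whose products restrict poxviruses, fell alike, SAMD9 from 18.52 and 21.71 to 6.34 and 7.27 FPKM and SAMD9L from 29.7 and 29.9 to 9.88 and 10.58. IFITM1 had the largest fall, from 115 and 78.43 to 23.54 and 19.95 FPKM, -2.08 ± 0.31 (adjusted p = 0.000327). ISG15 fell from 50.39 and 29.6 to 11.66 and 6.72 FPKM, -2.004 ± 0.38 (adjusted p = 0.00265). IFI6, a mitochondrial protein that protects cells from death, fell with a log2 difference of -1.13, and IFI44 with -1.16. IFIT1 was at 0.67 and 0.65 FPKM against 1.42 and 1.24, -0.49, which was not called. Without L363 WT replicate 1 the count of genes called lower was 4, and without L363 BtzR replicate 2 it was 5. ISG15 lost its call without either of these libraries (adjusted p = 0.0518 and 0.0513), as did OAS2, and IFI6 lost its call without the first. OASL and IFI44 lost theirs with any 1 of the 4 libraries left out, while IFITM1, MX1, SAMD9 and SAMD9L kept theirs with any 1 library left out.

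In L363 CfzR the same leaning was measured with fewer calls. There 6 of 43 genes were called lower and 0 higher, where 0.825% and 1.11% of tested genes were called. At any fold 11 passed as lower and 0 as higher, against 3.58% and 4.88% of tested genes. Both CfzR libraries were below both WT libraries for 31 genes and above for 2, against 27.4% and 24.8%. IFI27, whose mean was also lower here, had entered the test through L363 WT alone. OAS2 fell from 38.1 and 33.46 FPKM to 8.18 and 12.24, -1.74 ± 0.24 (adjusted p = 0.000216). OAS1 fell to 5.36 and 5.14 FPKM, -1.36 ± 0.23 (adjusted p = 0.00115). MX1 fell to 22.77 and 19.02 FPKM, -1.10 ± 0.24 (adjusted p = 0.00769). SAMD9, SAMD9L and IFI44 were the other 3. Of the 9 genes called lower in L363 BtzR and the 6 in L363 CfzR, 5 were in both lists, with the shared WT libraries behind each. ISG15 was at 20.63 and 16.38 FPKM in L363 CfzR, -1.03 from WT, which did not pass the test. STAT2 was at 10.03 and 13.58, IRF9 at 18.41 and 22.2 and IFIT1 at 0.88 and 0.73 FPKM, none of them called. Without L363 WT replicate 1 the count called lower was 3, and OAS2 and OAS1 were the genes called with any 1 library left out. IFI44 lost its call in every such fit, SAMD9 in all but the one without L363 CfzR replicate 2, MX1 without L363 WT replicate 1 or L363 CfzR replicate 2, and SAMD9L without L363 CfzR replicate 1.

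IFITM1 separated the L363 derivatives. It was at 146.06 and 132.56 FPKM in L363 CfzR, above both WT libraries, and at 23.54 and 19.95 in L363 BtzR, below them. In the direct comparison of L363 CfzR with L363 BtzR it was the gene called higher, by 2.63 ± 0.31 (adjusted p = 4.83e-05), with 1 of 43 genes called higher and 0 lower, where 0.940% and 0.535% of tested genes were called. The 2 derivatives differ in drug and in derivation, which cannot be told apart.

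In RPMI BtzR, 13 of 43 genes were called lower and 2 higher, where 7.92% and 5.91% of tested genes were called. At any fold 19 were lower and 2 higher, against 24.2% and 30.2% of tested genes. The BtzR libraries were both below WT for 29 genes and both above for 6, against 32.5% and 41.3%. By role, 3 of 5 ISG15 conjugation genes, 4 of 10 other antiviral effectors and 2 of 4 OAS genes were called lower.

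MX1 and MX2 were almost lost in RPMI BtzR. MX1 went from 4.02 and 3.49 FPKM to 0.08 and 0.04, -2.16 ± 0.24 (adjusted p = 2.35e-06), and MX2 from 6.84 and 4.75 to 0.08 and 0.02, -2.68 ± 0.14 (adjusted p = 3.54e-10). ISG20, an exonuclease that degrades viral RNA, went from 6.49 and 7.84 to 0.25 and 0.36 FPKM, -2.64 ± 0.15 (adjusted p = 1.15e-09). The ISG15 system fell at several steps. ISG15 itself went from 8.27 and 7.87 to 2.65 and 1.51 FPKM, -1.58 ± 0.38 (adjusted p = 0.00274). UBE2L6, its conjugating enzyme, went from 70.99 and 78.85 to 26.04 and 24.55 FPKM, and HERC5, its ligase, from 4.41 and 5.14 to 0.71 and 0.76. USP18 was at 0.08 and 0.05 FPKM against 0.05 and 0.

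IFI6 fell in RPMI BtzR from 7.81 in both WT libraries to 2.06 and 1.45 FPKM, -1.69 ± 0.22 (adjusted p = 1.20e-05). IRF7, the factor that amplifies interferon production, went from 4.96 and 3.16 to 1.57 and 1.34 FPKM, -1.02 ± 0.19 (adjusted p = 0.000356). BST2 went from 348.62 and 321.61 to 174.45 and 151.07 FPKM. SAMD9L, IFI35, OASL and OAS2 were the others called lower. STAT2 was at 6.77 and 8.78 FPKM against 12.52 and 16.43, -0.82 ± 0.20 (adjusted p = 0.00332), and OAS1 at 1.32 and 1.18 against 3.68 and 3.13, -0.97 ± 0.23 (adjusted p = 0.00251), both under the fold needed. IRF9 was at 5.29 and 3.79 FPKM against 5.07 and 4.92, and IFIT1 at 1.16 and 0.88 against 2.63 and 2. With 1 library left out, IRF7 and BST2 lost their calls without RPMI WT replicate 1 or RPMI BtzR replicate 2, OAS2 without RPMI WT replicate 2 or RPMI BtzR replicate 1, and OASL without any library but RPMI WT replicate 1.

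The pair that rose in RPMI BtzR did so from near 0. IFITM1 was at 0.4 and 0.79 FPKM in RPMI WT and at 46.02 and 51.88 in RPMI BtzR, 4.98 ± 0.31 (adjusted p = 3.64e-09). LGALS3BP, a secreted glycoprotein that binds galectins, was at 0.39 and 0.31 FPKM in WT and at 21.39 and 16.01 in BtzR. Its other 18 libraries were at no more than 0.43 FPKM, so it passed the filter on low values through RPMI BtzR alone and its levels are given without a test. Of the 2 genes called higher in RPMI BtzR, that leaves 1, IFITM1. Both promoters hold the core shown above. So do those of ISG20 and IFI6 and 1 of the 3 promoter sequences of MX1, genes that fell in the same cells. IFITM2 and IFITM3, neighbours and paralogs of IFITM1, were at 0.42 and 0.61 and at 2.19 and 1.62 FPKM in RPMI BtzR, against 0.56 and 1.24 and 1.95 and 2.35 in WT.

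The summed levels of several marker lists also moved in RPMI BtzR. The plasma cell list summed to 1191.39 to 1231.86 FPKM in WT and 851.92 to 914.55 in BtzR, the myeloid list to 19.04 to 23.28 and 9.92 to 12.22, and the NK cell list to 14.51 to 15.64 and 4.93 to 5.34. Within these lists the genes moved in both directions. In the plasma cell list MZB1, TNFRSF17 and CD38 were lower in BtzR, at 345.72 to 389.34, 4.93 to 7.86 and 2.43 to 3.02 FPKM against 654.32 to 716.88, 94 to 98.13 and 45.6 to 56.71. PRDM1, XBP1 and IRF4 were higher, at 15.88 to 21.38, 327.31 to 341.32 and 84.11 to 116.41 FPKM against 11.33 to 12.66, 246.33 to 247.79 and 60.68 to 66.11. Of the myeloid list CD68 went from 13.94 to 16.57 FPKM in WT to 3.53 to 3.66, while LYZ was at 4.6 to 6.36 in WT and 6.16 to 8.22 in BtzR. Of the NK cell list NCAM1 went from 11.25 to 12.44 FPKM in WT to 0.01 to 0.03, while KLRD1 was at 3.2 to 3.26 in WT and 4.9 to 5.33 in BtzR. The T cell marker CD3D and the plasmacytoid dendritic cell marker GZMB were at 0 in both groups. The part of these markers in the result was not tested. In bulk RNA, fewer expressing cells and less RNA per cell cannot be told apart.

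In AMO1 BtzR the set did not lean to either side. There 4 of 43 genes were called higher and 5 lower, where 4.61% and 4.57% of tested genes were called. IRF9, the DNA-binding partner of the STATs in ISGF3, rose from 10.84 and 11.22 FPKM to 42.21 and 30.66, by 1.62 ± 0.17 (adjusted p = 1.77e-06). STAT2 was at 11.96 and 9.6 FPKM against 16.59 and 19.67, -0.70 ± 0.20 (adjusted p = 0.00960). IFIH1 (MDA5), a sensor of long double-stranded RNA, rose from 8.8 and 7.66 to 22.32 and 14.26 FPKM, and USP18 from 0.51 and 0.19 to 3.01 and 1.81. RSAD2 (viperin) was at 7.62 and 1.67 FPKM against 1.26 and 1.22, 1.10 ± 0.33 (adjusted p = 0.0132). PARP9, PARP14 and DTX3L were all higher at an adjusted p under 0.05, by 0.87, 0.82 and 0.57, without reaching the fold needed.

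Against these, OAS2 fell in AMO1 BtzR from 17.22 and 17.56 FPKM to 1.83 and 0.53, a log2 difference of -3.14 ± 0.24 (adjusted p = 1.02e-07), and OAS1 from 3.66 and 4.4 to 1.35 and 0.3, a log2 difference of -1.52 ± 0.23 (adjusted p = 7.40e-05). SAMD9 fell from 36.65 and 45.39 to 6.12 and 6.29 FPKM, -2.54 ± 0.29 (adjusted p = 5.97e-06), and SAMD9L from 18.84 and 20.8 to 7.78 and 7.23. IFITM1 fell from 20.94 and 23.43 to 2.25 and 0.38 FPKM, -3.45 ± 0.31 (adjusted p = 4.64e-07). MX1 was at 0.69 and 0.49 FPKM against 0.06 and 0.07, IFIT1 at 1.73 and 0.69 against 2.22 and 1.37, and ISG15 at 15.98 and 5.91 against 6.25 and 6.78, none of them called. With a pseudocount of 0.1 in place of 1 the log2 difference of MX1 was 2.05 and it was called (adjusted p = 2.51e-05). The B cell list summed to 8.32 to 10.88 FPKM in AMO1 WT and 98.07 to 100.48 in AMO1 BtzR. Of that sum CIITA, the master regulator of MHC class II genes and itself inducible by interferon gamma, made up 96.06 to 98.62 FPKM, while MS4A1, CD22, CD72 and PAX5 were at no more than 0.23 FPKM. The plasmacytoid dendritic cell list was also higher, at 2.63 to 2.75 FPKM in AMO1 BtzR against 0.62 to 1.14 in AMO1 WT. Of it IL3RA made up 2.36 to 2.39 FPKM in AMO1 BtzR, against 0.45 to 0.49 in AMO1 WT. The sums of the plasma cell, T cell, NK cell and myeloid lists were lower in AMO1 BtzR. The plasma cell list summed to 3849.4 to 4175.19 FPKM in WT and 2280.14 to 2538.52 in BtzR. SDC1 was at 2883.13 to 3265.9 in WT and 1276.12 to 1355.96 in BtzR. Within the plasma cell list the genes moved in both directions. CD38 and IRF4 were also lower in BtzR, at 6.16 to 6.62 and 106.08 to 131.41 FPKM. Their WT libraries were at 12.56 to 15.9 and 134.39 to 176.96. MZB1, SLAMF7 and PRDM1 were higher in BtzR, at 573.13 to 684.14, 130.23 to 156.96 and 36.91 to 38.81 FPKM. In WT these were at 488.57 to 489.35, 88.56 to 91.91 and 22.49 to 30.19. TNFRSF17 and XBP1 overlapped. The T cell list summed to 8.38 to 12.82 and 1.39 to 1.99 FPKM, the NK cell list to 8.99 to 9.62 and 3.91 to 3.94, and the myeloid list to 9.8 to 11.63 and 5.33 to 5.71, with CD3D and NCR1 at 0 in both groups. The part of these markers in the result was not tested.

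The AMO1 BtzR libraries differed from each other over this set. Replicate 1 was higher in 37 of 43 genes, with a median gap of 0.42 on the log2 scale, where the median over all tested genes was 0.01. For 6 genes the gap was over 1, all with replicate 1 higher. These were OASL at 6.96 and 1.52 FPKM, IFIT2 at 5.64 and 1.04, IFIT3 at 17.44 and 4.04, RSAD2 at 7.62 and 1.67, IFITM1 at 2.25 and 0.38, and ISG15 at 15.98 and 5.91. They are 14.0% of the set, where 0.199% of all tested genes had a gap over 1 in this group. Without AMO1 BtzR replicate 1 the count called higher was 2 and RSAD2 was at 0.25 (adjusted p = 0.148), without replicate 2 it was 7, and without AMO1 WT replicate 2 it was 2. RSAD2 kept its call without AMO1 BtzR replicate 2 alone, and IFIH1 lost its call without AMO1 BtzR replicate 1 or AMO1 WT replicate 2. The count called lower was 5 with any 1 library left out. In ARH77 BtzR 2 genes, IFI44 and IFI44L, had such a gap, and in ARH77 WT 1 gene, DHX58, did, at 0.94 and 4.06 FPKM. The remaining 7 groups had none. Replicate 1 was also higher for 35 of 43 genes in ARH77 BtzR, with a median gap of 0.19 against -0.01 over all tested genes, for 31 in L363 BtzR and for 30 each in L363 WT and AMO1 CfzR.

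**Figure D4:**
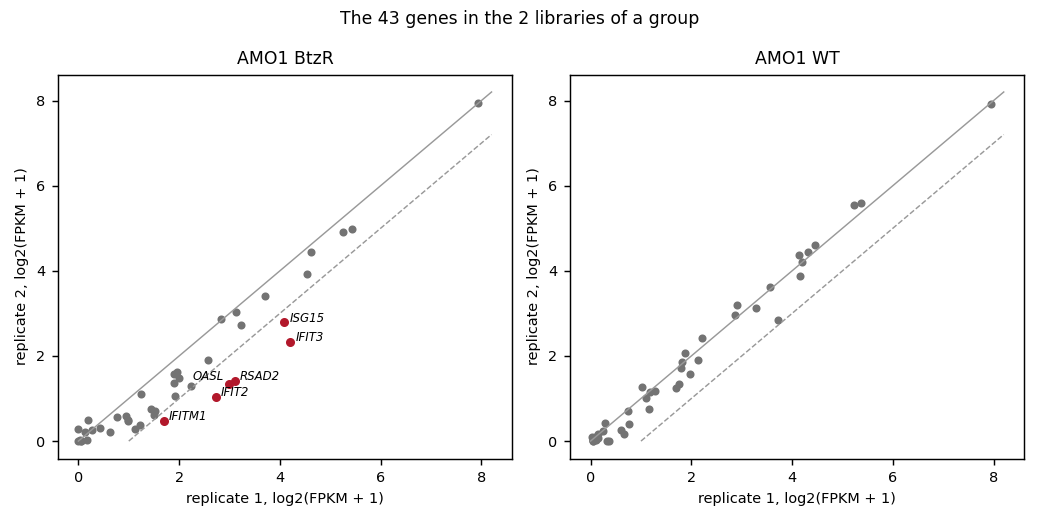
The 43 genes in the 2 libraries of AMO1 BtzR (left) and AMO1 WT (right), in log2(FPKM + 1), with the line of equality (solid) and a gap of 1 (dashed). In AMO1 BtzR 6 genes (red) lie past the dashed line and 37 of 43 are higher in replicate 1, and in AMO1 WT none lies past it.

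In ARH77 BtzR, 2 of 43 genes were called higher and 0 lower, where 0.955% and 0.649% of tested genes were called. At any fold, 5 were higher and 1 lower, which was HERC5, where 5.98% and 7.60% of tested genes passed. OAS3, the OAS enzyme that responds to long RNA, rose from 3.1 and 2.76 to 9.19 and 7.74 FPKM, by 1.27 ± 0.08 (adjusted p = 1.39e-07). USP18 rose from 21.91 and 19.45 to 43.33 and 45.47 FPKM, by 1.07 ± 0.17 (adjusted p = 0.000631). OAS1 was at 22.39 and 19.41 FPKM against 9.7 and 14.47, 0.76 ± 0.23 (adjusted p = 0.0403), and HERC5 at 14.87 and 11.98 against 23.75 and 28.81, -0.92 ± 0.21 (adjusted p = 0.00886). IRF9 was at 18.1 and 14.19 FPKM against 10.79 and 12.75, and STAT2 at 8.25 and 10.25 against 8.39 and 13.71. MX1, at 27.17 and 15.05 FPKM against 26.92 and 17.28, and ISG15, at 27.68 and 19.68 against 17.65 and 24.39, overlapped between the groups, as did IFIT1 at 2.2 and 1.64 against 2.11 and 2.37. Without ARH77 BtzR replicate 2 the count called higher was 4, and without ARH77 WT replicate 2 USP18 was at 0.99 and OAS1 at 1.03, so that OAS1 was called and USP18 was not.

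The libraries labelled AMO1 CfzR were called higher than AMO1 WT for 10 of 43 genes and lower for 5, where 7.88% and 9.21% of tested genes were called. MX1 was at 45.04 and 32.64 FPKM against 0.06 and 0.07, 5.21 ± 0.24 (adjusted p = 8.59e-11), and IFITM1 at 268.99 and 238.33 against 20.94 and 23.43, 3.46 ± 0.31 (adjusted p = 1.97e-07). IFI6, USP18, IRF7, ISG15, OAS1, IFI35, IRF9 and PARP14 were also higher, and SAMD9, IFIT2, IFIT3, OASL and HERC5 lower. Set against L363 WT in place of AMO1 WT, 1 gene was higher and 2 lower, where 0.856% and 0.802% of tested genes were called. IFITM1 was higher by 1.41 ± 0.31 (adjusted p = 0.0102), and SAMD9 and SAMD9L were lower, at -1.20 and -1.03. MX1, at 50.59 and 41.28 FPKM in L363 WT, overlapped. Without AMO1 WT replicate 1 the 5 called lower than AMO1 WT became 3, IFIT3 and HERC5 losing their calls, and PARP14 lost its call without AMO1 WT replicate 2 or AMO1 CfzR replicate 2. Against L363 WT, IFITM1 lost its call without either AMO1 CfzR library or L363 WT replicate 2, and both SAMD9 genes lost theirs with any 1 of the 4 libraries left out.

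**Figure D5:**
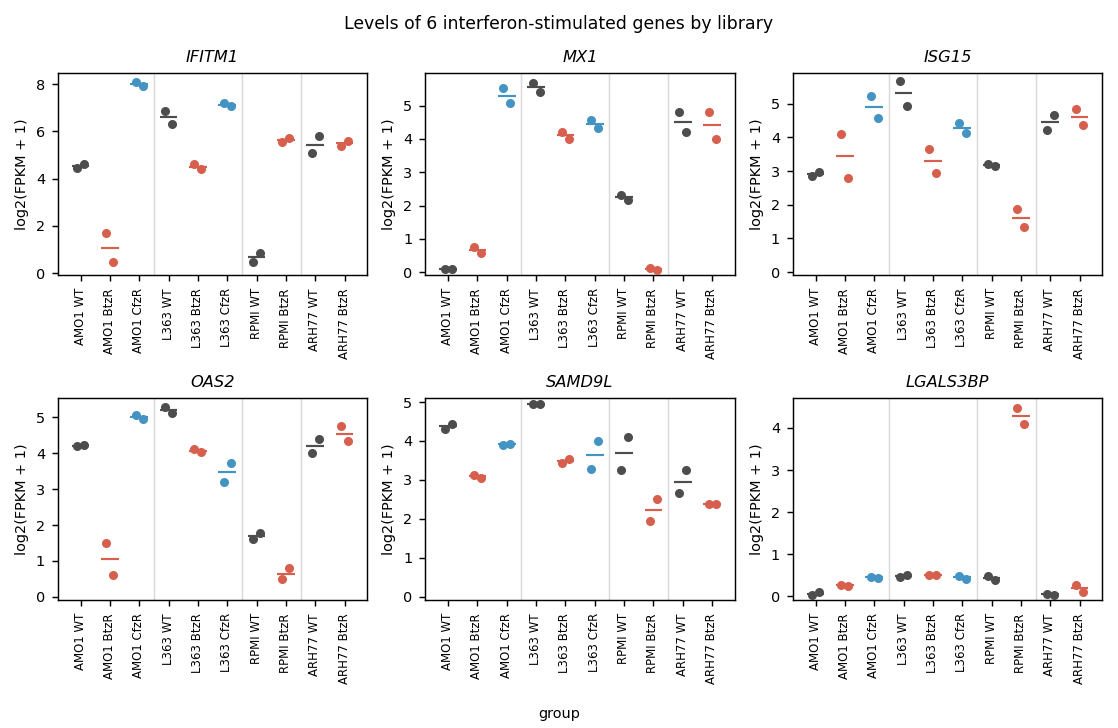
Levels of 6 genes in log2(FPKM + 1) by group, with 1 point per library and a bar at the mean (WT grey, BtzR red, CfzR blue). IFITM1 is lower than WT in AMO1 BtzR and L363 BtzR and higher in RPMI BtzR, OAS2 and SAMD9L are lower in the resistant cells of AMO1 BtzR, L363 and RPMI, and LGALS3BP is above 1 FPKM in RPMI BtzR and under it elsewhere.

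The effect of bortezomib resistance was compared between the 4 lines with an interaction test. It differed for 28 of 43 genes, 65.1%, where 71.1% of all tested genes differed, so the set was not set apart by this count. Of the 28, OAS3, TRIM22 and HERC6 entered the test through the ARH77 groups alone, and LGALS3BP through RPMI BtzR alone. IFITM1 was the 1 member called in opposite directions, at -3.45 in AMO1, -2.08 in L363 and 4.98 in RPMI, with 0.06 in ARH77 (adjusted p of the interaction = 2.89e-09). For OAS2 the differences were -3.14, -1.14, -1.04 and 0.35 in the same order (adjusted p = 6.04e-06).

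The pathway upstream of these genes was followed through other lists. Of 21 interferon genes, 12 were in the table. Outside IFNG, with a highest library of 1.51 FPKM in AMO1 WT replicate 1, and IFNL1, with 1.03 FPKM in ARH77 WT replicate 2, none passed 0.2 FPKM in any library. Of 20 genes for receptors and signalling, 0 were called in L363 BtzR, L363 CfzR or ARH77 BtzR. In the same order, 1.02%, 1.11% and 0.955% of tested genes were called higher there and 1.05%, 0.825% and 0.649% lower. The counts of 0 are near these shares. In AMO1 BtzR 2 of the 20 were higher and 2 lower, where 4.61% and 4.57% of tested genes were called. In RPMI BtzR 5 were lower, where 7.92% were. IFNAR2, a chain of the type I receptor, went from 33.94 and 32.75 to 7.69 and 6.7 FPKM in RPMI BtzR, -2.07 ± 0.18 (adjusted p = 1.57e-07). IFNLR1, IL10RB, IRF5 and PTPN6 were the other 4. IFNAR1 differed there by -0.75 ± 0.09 (adjusted p = 4.10e-06) and JAK1 by -0.60 ± 0.09 (adjusted p = 4.39e-05), under the fold needed.

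SOCS1, a feedback inhibitor of the JAK kinases, was among the genes that rose in AMO1 BtzR, from 0.32 and 0.18 FPKM to 2.97 and 2.12, a log2 difference of 1.496 ± 0.19 (adjusted p = 1.33e-05).

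Among 20 tested sensors and adaptors of nucleic acid sensing, 0 were called in L363 BtzR or ARH77 BtzR. There 1.02% and 0.955% of tested genes were called higher and 1.05% and 0.649% lower, shares that are near 0 of 20. In L363 CfzR 1 was lower, where 0.825% of tested genes were. In AMO1 BtzR 6 of 20 were lower (AIM2, CGAS, IFI16, RNF135, TBK1 and TLR9) and 0 higher, against 4.57% and 4.61% of tested genes. In RPMI BtzR 3 were lower (IFI16, TLR7 and TLR9), and TMEM173, which encodes the adaptor STING, was higher, against 7.92% and 5.91%. IFI16, a DNA sensor, was the gene called lower in L363 CfzR, AMO1 BtzR and RPMI BtzR alike.

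Another 46 tested genes known to respond to interferon lie outside the 43. In L363 BtzR 0 of them were called in either direction, where 1.05% of tested genes were called lower and 1.02% higher. At any fold 1 was higher and 4 lower, against 5.66% and 5.52%, and the median was -0.05. In L363 CfzR 1 was higher (NMI) and 1 lower (HSH2D), where 1.11% and 0.825% of tested genes were called, with a median of -0.04. In RPMI BtzR 3 of 46 were higher and 7 lower, among them CXCL9, EPSTI1 and SP110, where 5.91% and 7.92% of tested genes were called. CXCL9, at 1.2 and 2.49 FPKM in RPMI WT, averaged 1 FPKM or more in that group alone. It entered the test through the group where it was high, so no conclusion is drawn from its call. In AMO1 BtzR 3 were higher and 4 lower, against 4.61% and 4.57%.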

How the data were processed

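RNA from flash-frozen cell pellets was sequenced on the BGISEQ-500 platform. Per the labels, the submitters' processing notes name HISAT2 2.0.4, Bowtie2 2.2.5 and RSEM 1.2.12. The genome build and annotation are not given in the sources used here. The authors deposited FPKM per gene, which was used as deposited, and read counts were not analysed here. The 43 genes and all other gene lists were chosen with earlier results of these data known, so their leaning is described by counts and medians beside all tested genes and is not independent support.

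Differences were tested on log2(FPKM + 1) with limma 3.58.1 in R 4.3.3 (a mean per group, all 20 libraries, 10 residual degrees of freedom, empirical Bayes with trend), over the 13089 genes that averaged 1 FPKM or more in some group. P-values were two-sided and Benjamini-Hochberg adjusted over all tested genes, and the script was tested on simulated data. P-values rest on the spread of 2 libraries a group. With 2 against 2 libraries an exact permutation test cannot go below 0.33, so none was used. Replicate numbers were not taken as pairs, since the labels give them no shared origin.

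Values in every library are given for up to 8 called genes with the largest change and no overlap in each comparison, for the widest ranges among WT lines, for genes called in opposite directions, and for STAT2, IRF9, ISG15, MX1, IFIT1 and OAS1. Alternatives were a pseudocount of 0.1, no filter, rescaling to equal sums, quantile normalization, a replicate block, the compared libraries alone, each library left out in turn, and, chosen after seeing the data, a fit without the AMO1 CfzR libraries. Promoters came from RefSeq by gene identifier. Figures were drawn with matplotlib 3.10.9.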

Additional observations from a re-analysis of the deposited data

Results flagged for a closer look

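By the interaction test (limma F test, adjusted p under 0.05), 28 of the 43 genes responded unequally to bortezomib resistance in the 4 lines, where 71.1% of all tested genes did. Each value below is the adjusted p of that test.

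The test spans all 4 lines and does not compare 1 pair of them. For genes called lower in RPMI BtzR and not called in ARH77 BtzR, it gave 2.66e-08 for MX2, 3.03e-07 for ISG20, 2.15e-05 for MX1, 6.98e-05 for IFI6, 0.00145 for ISG15, 0.000192 for UBE2L6, 0.000714 for BST2, 0.00210 for IFI35 and 0.0112 for OASL. MX2 in AMO1 WT and L363 WT, and MX1 in AMO1 WT, were under 1 FPKM and had little room to fall there. No conclusion on those lines is drawn from the values of MX1 and MX2. HERC5, called lower in RPMI BtzR and lower at any fold in ARH77 BtzR (-0.92), gave 0.00159. Of the genes higher in RPMI BtzR, LGALS3BP gave 2.86e-11, having entered the test through RPMI BtzR alone, so that it had to differ, and IFITM1, which was called lower in AMO1 BtzR and L363 BtzR, gave 2.89e-09.

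Of the genes called in AMO1 BtzR, IRF9 gave 1.29e-05, IFIH1 2.71e-05, USP18 1.32e-05, OAS2 6.04e-06, OAS1 0.000151 and SAMD9 0.000957. OAS3, called in ARH77 BtzR, gave 2.56e-07. It averaged 1 FPKM or more in ARH77 groups alone, so it entered the test through that line. In the other lines it had little room to change, and no conclusion is drawn from its value. PARP9, PARP14 and DTX3L, higher in AMO1 BtzR and lower in L363 BtzR at any fold, gave 0.000322, 0.00138 and 0.000455.

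The remaining values were 0.0116 for EIF2AK2, 0.00388 for IFIT5, 0.0271 for TRIM22, 0.00170 for XAF1, 0.00450 for HERC6 and 0.0312 for IFI44. Of these, TRIM22 and HERC6 averaged 1 FPKM or more in ARH77 groups alone and entered the test through that line. No group has more than 2 libraries, so single libraries were not examined as outliers.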

How the results depend on the processing

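Of the counts of called genes, all kept within 1.5 times their value under rescaling to equal sums, and under the fit without the AMO1 CfzR libraries, which gave 7 lower in L363 BtzR and 5 in L363 CfzR. With a pseudocount of 0.1 the counts became 9 higher in AMO1 BtzR, 15 lower in L363 BtzR, 10 lower in L363 CfzR, 18 higher and 8 lower in AMO1 CfzR against AMO1 WT, 0 higher and 4 lower in AMO1 CfzR against L363 WT, 3 higher in L363 CfzR against L363 BtzR and 2 lower in ARH77 WT. The count lower in AMO1 CfzR against L363 WT was 1 without the filter, 1 under quantile normalization and 4 with the compared libraries alone. Single calls near the threshold also changed: OASL and IFI44 in L363 BtzR lost theirs without the filter (adjusted p = 0.0823 and 0.0726) and without the AMO1 CfzR libraries (0.0578 and 0.0507), IFI44 in L363 CfzR did in the same fits (0.0888 and 0.0610), OAS2 in L363 BtzR did with a pseudocount of 0.1 (0.0654), and RSAD2 in AMO1 BtzR with the compared libraries alone (0.0558). OASL in L363 BtzR lost its call under quantile normalization too (0.0512). Under quantile normalization BST2 and OASL in RPMI BtzR (-0.94 and -0.97), HERC5 in AMO1 CfzR against AMO1 WT (-0.94) and SAMD9L in AMO1 CfzR against L363 WT (-0.99) fell under the fold needed, as IFIH1 in AMO1 BtzR did on rescaling (0.99). SAMD9L in AMO1 CfzR against L363 WT lost its call without the filter (0.0657) and IFITM1 there with a pseudocount of 0.1 (0.129). Calls were gained with a pseudocount of 0.1 by MX1 in AMO1 BtzR (2.05), IFIT1 in RPMI BtzR (-1.11) and in AMO1 CfzR against AMO1 WT (-1.23), and OAS1 in RPMI BtzR (-1.37), which also gained one under quantile normalization (-1.03). ISG15 in L363 CfzR passed with the compared libraries alone (0.0321). In each of these the cause was not tested.

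With 1 library left out, the counts ranged from 2 to 7 higher and 5 to 5 lower in AMO1 BtzR, 4 to 7 lower in L363 BtzR, 3 to 5 lower in L363 CfzR, 10 to 12 lower and 2 to 2 higher in RPMI BtzR, 2 to 4 higher and 0 to 1 lower in ARH77 BtzR, 9 to 10 higher and 3 to 5 lower in AMO1 CfzR against AMO1 WT, and 0 to 1 higher and 0 to 0 lower in AMO1 CfzR against L363 WT. They ranged from 26 to 33 in the interaction test and from 31 to 34 between WT lines.

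The reversals were in differences that were not called. STAT2 in L363 BtzR became 0.0155 on rescaling to equal sums, and STAT2 in L363 CfzR 0.0256 on rescaling and 0.0197 under quantile normalization. With 1 library left out, STAT2 in L363 CfzR ranged from -0.202 to 0.201, ISG15 in AMO1 BtzR from -0.120 to 1.18, IRF9 in RPMI BtzR from -0.324 to 0.0694, MX1 in ARH77 BtzR from -0.493 to 0.318, ISG15 in ARH77 BtzR from -0.0735 to 0.398 and STAT2 in ARH77 BtzR from -0.528 to 0.120. With the replicate number as a block, the counts were 10 lower in L363 BtzR, 8 lower in L363 CfzR, 13 lower in RPMI BtzR and 32 in the interaction test, none moved by over 1.5 times, and ISG15 in L363 CfzR passed (adjusted p = 0.0399). Deviations of same-numbered libraries correlated at -0.006 to 0.24, over 2 pairs a comparison. Depth is unknown from FPKM, so low values, as of MX1 in AMO1 WT, carry an error that could not be given.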
